A study of Mus musculus with 6 samples.

Results

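The miR-26 family was followed strand by strand in small RNA libraries from 3 mouse tumors and 3 mouse oviducts. Its members were the 5 count rows named for miR-26a or miR-26b, out of 1915 mouse microRNA names. They are mmu-miR-26a-5p and mmu-miR-26b-5p, the strands that are normally kept as guides, and mmu-miR-26a-1-3p, mmu-miR-26a-2-3p and mmu-miR-26b-3p, the passenger strands that are normally discarded. The species prefix is left off below. The tumors were primary tumors, listed as ADT tumors with oviduct as their tissue, of genotype Dicer1ko/D1693N, in which a knocked-out Dicer1 allele is paired with the D1693N allele. The oviducts were of genotype Dicer1+/D1693N, so both groups carried D1693N, and only the oviducts had a normal allele beside it. No treatment was given, and the labels name no age, strain or Cre driver. The series text counts 4 tumors and 5 oviducts, and 3 of each were used here. Nothing in the labels ties the samples to separate animals, so a p-value refers to the spread among samples, and that spread may be technical.

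A microRNA hairpin is cut by Dicer into a strand from its 5p side and one from its 3p side. Its RNase IIIa domain cuts the 3p side and its RNase IIIb domain, which holds D1693N, cuts the 5p side. One strand, the guide, is then loaded into Argonaute and pairs with messenger RNAs through its seed, bases 2 to 8, while the other is mostly degraded. Guides of the miR-26 family are widely expressed in normal tissues, and in human and mouse cells they are known to repress the messenger RNA of Ezh2, a histone methyltransferase. Messenger RNAs were not measured here. The hairpins lie within the genes of small phosphatases that act on RNA polymerase II.

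The sequences of all 5 members were found in RefSeq (GRCm38.p6), and they show which rows can be told apart. The mature strands are written 5′ to 3′ with the seed in capitals.
miR-26a-5p: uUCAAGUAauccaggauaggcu
miR-26b-5p: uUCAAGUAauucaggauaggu
miR-26a-1-3p: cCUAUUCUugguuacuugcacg
miR-26a-2-3p: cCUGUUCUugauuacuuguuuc
miR-26b-3p: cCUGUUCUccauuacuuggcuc
Both guides have the seed UCAAGUA, which no other mouse name in the RefSeq table has. Over their first 21 bases they differ at 2 positions, C11U and C21U (the base of miR-26a-5p first, positions counted from 1 at the 5′ end), and miR-26a-5p is 1 base longer. A read cut short at its 3′ end is therefore told apart by position 11 alone, and how reads that match both names were assigned is not given in the sources used here. The passengers differ more. The seed CUGUUCU is shared by miR-26a-2-3p and miR-26b-3p, which match at 18 of 22 bases, while miR-26a-1-3p has A4G within its seed relative to miR-26a-2-3p and matches it at 16 of 22.

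Mature miR-26a-5p is made by 2 genes with the same 5p sequence, so only the 3p strand shows which gene a hairpin came from. In the hairpins below, the 5p strand (first) and the 3p strand (second) are in capitals.
Mir26a-1: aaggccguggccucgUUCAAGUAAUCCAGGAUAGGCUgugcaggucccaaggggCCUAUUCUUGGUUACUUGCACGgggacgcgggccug
Mir26a-2: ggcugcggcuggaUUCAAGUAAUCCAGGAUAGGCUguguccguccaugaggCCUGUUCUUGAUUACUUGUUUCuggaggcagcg
Mir26b: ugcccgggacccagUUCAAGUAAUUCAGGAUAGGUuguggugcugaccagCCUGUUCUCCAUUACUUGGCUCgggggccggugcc
Mir26a-1 lies at chr9:119031796-119031885 on the plus strand, in intron 5 of 7 of the GENCODE transcript Ctdspl-201. Mir26a-2 lies at chr10:126995530-126995613 on the plus strand of Ctdsp2, where it is exonic in 2 of 4 annotated transcripts and intronic in 1. Mir26b lies at chr1:74394310-74394394 on the plus strand, in intron 4 of 6 of Ctdsp1-201. Between the capitals stand 17, 16 and 15 bases of loop, and RNase IIIb cuts at the left edge of that loop, behind the last base of the 5p strand.

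Mouse counts per library ranged from 154002 to 272167 in the tumors and from 297039 to 580390 in the oviducts. Levels are given as CPM, counts scaled by library size and by TMM factors (trimmed mean of M-values), and 227 names passed the low-count filter and were tested with edgeR's quasi-likelihood test. Of the 5 members, both guides passed that filter and the 3 passengers did not. A floor of 3 counts stands for at most 19.5 CPM by library totals. Tissue state, genotype and a tag of the columns' names, the same within each group and different between them, cannot be told apart. Markers of cell types moved as well. The summed level of 6 microRNAs of multiciliated epithelium lay between 420 and 1204 CPM in the tumors and between 14806 and 21529 CPM in the oviducts, and 3 of the 5 tested were lower. That of 5 epithelial microRNAs lay between 3841 and 6986 CPM in the tumors and between 6913 and 11920 CPM in the oviducts, with 1 of 5 lower. That of 4 smooth muscle and fibroblast strands lay between 94253 and 832074 CPM in the tumors and between 487759 and 555580 CPM in the oviducts, with 2 of 4 lower. The 2 endothelial strands, both higher, summed to between 15136 and 20113 CPM in the tumors and between 7117 and 9508 CPM in the oviducts. The sums of 5 leukocyte names (1374 to 7089 CPM in the tumors, 1386 to 2351 CPM in the oviducts) and of 3 red cell names (1860 to 11534 CPM in the tumors, 4457 to 5630 CPM in the oviducts) overlapped. Of the 5 leukocyte names 0 were called in either direction, and of the 2 tested red cell names 1 was higher. No listed marker was at 0 in all libraries of a group, and the part of these shifts in the results was not tested. In bulk tissue, fewer cells of a type and less RNA per cell cannot be told apart.

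Both guides of the family fell in the tumors, by 3.04-fold for miR-26a-5p and by 2.69-fold for miR-26b-5p. The guide miR-26a-5p had 1817, 2685 and 2548 counts in tumors 1 to 3, against 13260, 18231 and 5657 counts in oviducts 1 to 3. After scaling these were 9112, 11480 and 11156 CPM in the tumors and 41176, 33141 and 22269 CPM in the oviducts. Every tumor lay below every oviduct, and the oviducts were spread more widely, with oviduct 3 the lowest of them. The mean was 10583 ± 1284 CPM in the tumors and 32196 ± 9489 CPM in the oviducts (SD, n = 3 each). The log2 fold change (tumor over oviduct) was -1.61 (SE 0.31, edgeR adjusted p = 0.00162).

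The second guide, miR-26b-5p, was the less abundant guide in every library. It had 286, 399 and 327 counts in tumors 1 to 3, against 1278, 2152 and 1127 counts in oviducts 1 to 3. After scaling these were 1434, 1706 and 1432 CPM in the tumors and 3969, 3912 and 4437 CPM in the oviducts. The groups did not overlap here either, and the oviducts stood close together, unlike for miR-26a-5p. The mean was 1524 ± 158 CPM in the tumors and 4106 ± 288 CPM in the oviducts (SD, n = 3 each), a log2 fold change of -1.43 (SE 0.31, edgeR adjusted p = 0.00313).

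**Figure D1:**
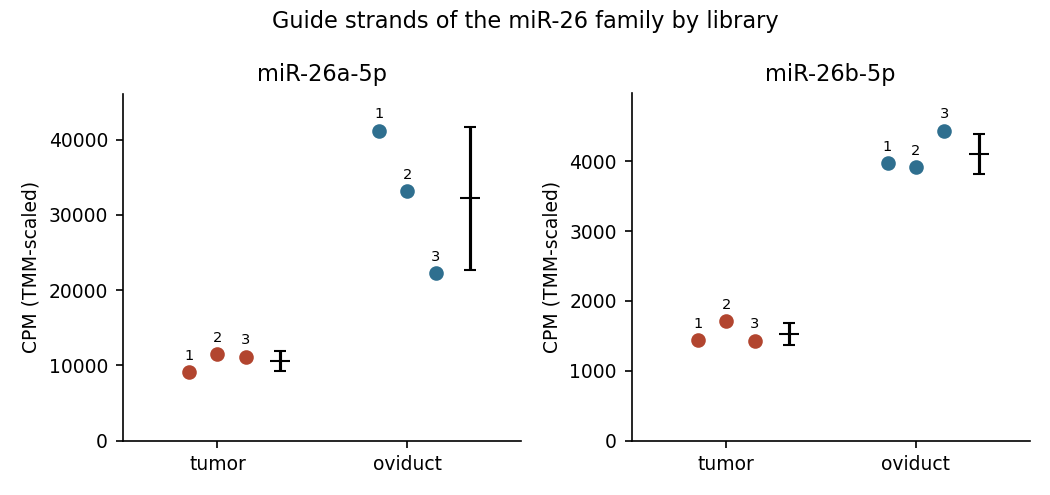
Levels of the guides miR-26a-5p (left) and miR-26b-5p (right) in TMM-scaled CPM, 1 point a library with its number, with the mean ± SD of each group (n = 3 each) as a bar beside the points. The tumors sit below the oviducts for both strands, at 9112 to 11480 against 22269 to 41176 CPM for miR-26a-5p and at 1432 to 1706 against 3912 to 4437 CPM for miR-26b-5p.

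Falls were common in these libraries, so these calls are read against a high background. Of all 227 tested names 52.4% were called in either direction and 25.6% were called lower in the tumors, and of the 95 tested 5p names 48.4%. The share of tested names whose tumors all lay below all oviducts was 30.4%. Ordered by log2 fold change, miR-26a-5p stood at place 29 and miR-26b-5p at place 37 of the 95 5p names, counted from the largest fall, and the median 5p name was at -1.04. The median of all tested names was 0.20.

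The size of the fall moved with the scaling. With library totals alone both calls were lost, at log2 fold changes of -1.16 for miR-26a-5p (edgeR adjusted p = 0.0617) and -1.01 for miR-26b-5p (adjusted p = 0.135). The name with the most counts over the 6 libraries together, miR-143-3p of smooth muscle and fibroblasts, is part of those totals and took 60.9%, 27.7% and 13.9% of counts in tumors 1 to 3 and 44.1%, 45.8% and 47.2% in oviducts 1 to 3. Library totals without the miR-143 strands kept both calls, at -1.46 (adjusted p = 0.00242) and -1.28 (adjusted p = 0.00554). With TMM factors from 3p names alone, a choice that treats 3p names as unchanged on average, the falls were -2.52 and -2.30. The median of all tested names moved likewise, to 0.65 with library totals alone, 0.34 without miR-143 and -0.73 with TMM on 3p names. Relative to that median miR-26a-5p stood at -1.81 with TMM, -1.81 with library totals alone, -1.79 without miR-143 and -1.79 with TMM on 3p names. A change of scaling shifts all names almost alike, so that likeness follows from the arithmetic and is no support for the fall. Among the other settings the value ran from -2.73 with no low-count filter to -1.66 with a block for the replicate number.

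**Figure D2:**
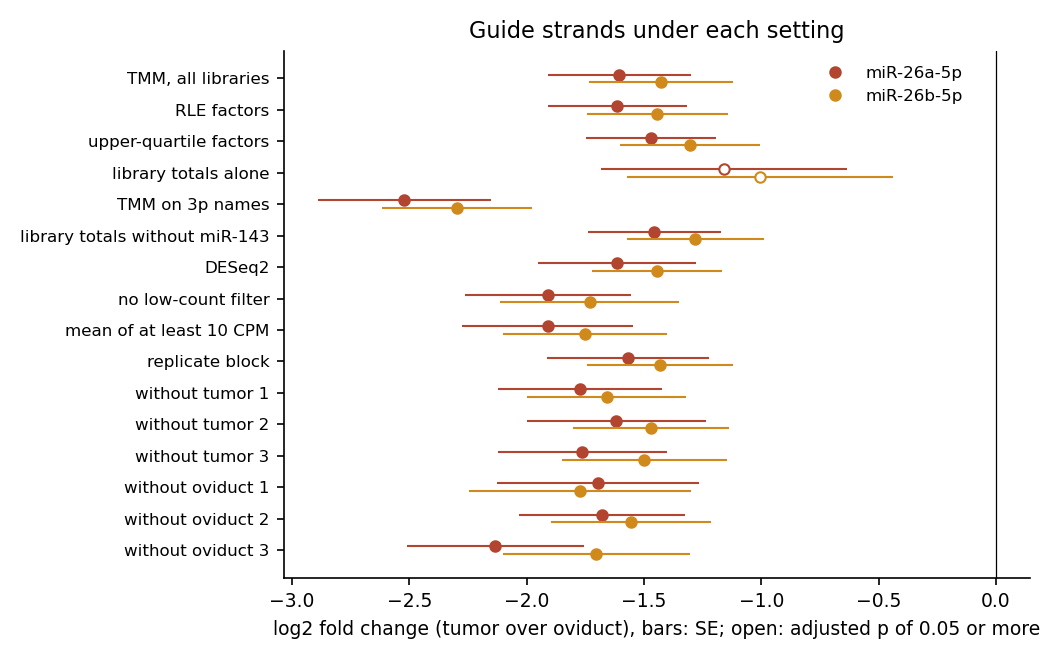
Log2 fold change (tumor over oviduct) of miR-26a-5p and miR-26b-5p under each setting, with the SE as a bar and open symbols where the adjusted p was 0.05 or more. All values lie below 0, from -2.52 to -1.16 for miR-26a-5p and from -2.30 to -1.01 for miR-26b-5p, and library totals alone is the setting with open symbols.

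The balance between the guides did not separate the groups. The count of miR-26a-5p was 6.35, 6.73 and 7.79 times that of miR-26b-5p in tumors 1 to 3, against 10.4, 8.47 and 5.02 times in oviducts 1 to 3. The tumor values lay inside the range of the oviducts. The log2 ratio differed by -0.14 (two-sided exact permutation p = 0.8, with 0.1 the smallest that 3 against 3 allows), and leaving out single libraries moved it between -0.44 and 0.088, with the positive value without oviduct 1. A difference of that size between the guides is within the spread of these 6 libraries, which does not show that they fell equally. Across the 6 libraries Pearson's r of their log2 CPM was 0.919, as a description of libraries that share the same scaling.

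Summed over its 5 rows, the family took 0.776%, 1.77% and 1.89% of the mouse counts in tumors 1 to 3, against 3.87%, 3.51% and 2.29% in oviducts 1 to 3. By count miR-26a-5p ranked 13, 11 and 10 among all names in tumors 1 to 3, against 4, 4 and 5 in oviducts 1 to 3. Among 5p names alone it ranked 6, 5 and 4 in the tumors and 3 in each oviduct, so it stood near the top of its arm in both groups. The strand miR-26b-5p ranked 41, 39 and 48 in tumors 1 to 3, against 27, 27 and 23 in oviducts 1 to 3. The summed level was 12228 ± 1455 CPM in the tumors and 36328 ± 9254 CPM in the oviducts (SD, n = 3 each), with no overlap (log2 difference -1.55, two-sided exact permutation p = 0.1, the smallest possible).

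Of the passenger strands, miR-26a-2-3p was the one whose groups stood apart. It had 6, 32 and 21 counts in tumors 1 to 3, against 1, 1 and 0 counts in oviducts 1 to 3. After scaling these were 30.1, 137 and 91.9 CPM in the tumors and 3.11, 1.82 and 0 CPM in the oviducts. It was thus near absent from the deeper libraries and counted in every one of the shallower ones, with tumor 1 the lowest tumor. Pooled, 59 counts in the tumors stood against 2 in the oviducts, a ratio of scaled rates of 50.2 (exact Poisson 95% interval 13.3 to 424, for counting error, not for the spread between samples). The strand did not pass the filter on low counts and so has no test in the fit over 227 names. With no low-count filter edgeR called it higher (log2 5.02, adjusted p = 9.59e-07 over 919 names). The size of that p depends on the names fitted. In the same fit miR-26a-5p had an edgeR adjusted p of 1.57e-06, against 0.00162 over 227 names. With a mean of at least 10 CPM, over 340 names, miR-26a-2-3p had a near equal log2 of 5.06 but an edgeR adjusted p of 0.00107. It passed that filter through its tumor counts alone. Rises of 3p strands were common in the fit over 227 names, with 41.8% of its 110 tested 3p names called higher. In the fit over 919 names 98 names of any arm were called higher. Fitted values of a strand with so few oviduct counts depend on edgeR's prior count.

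For the passenger miR-26b-3p the groups overlapped. It had 3, 11 and 9 counts in tumors 1 to 3, against 13, 9 and 5 counts in oviducts 1 to 3. After scaling these were 15.04, 47.03 and 39.4 CPM in the tumors and 40.4, 16.4 and 19.7 CPM in the oviducts, so that tumor 1 was the lowest library and tumor 2 the highest. The ratio of scaled rates was 1.45 (exact Poisson 95% interval 0.794 to 2.63). The direction was lost with TMM factors from 3p names, where the log2 ratio was -0.39, against 0.54 with TMM on all names. With no low-count filter edgeR fitted a log2 fold change of 0.15 (adjusted p = 0.901).

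The passenger of the other gene copy, miR-26a-1-3p, had 0, 1 and 0 counts in tumors 1 to 3 and 0 counts in each oviduct. Of the 60 miR-26a 3p counts in the tumors, 59 were therefore assigned to the Mir26a-2 hairpin, 98.3% (exact Clopper-Pearson 95% interval 91.1 to 99.96). In the oviducts the count of 2 is too low to give a share. These counts say how the 3p reads were divided between the copies, not how the 5p reads were, since the 5p sequence is the same in both.

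**Figure D3:**
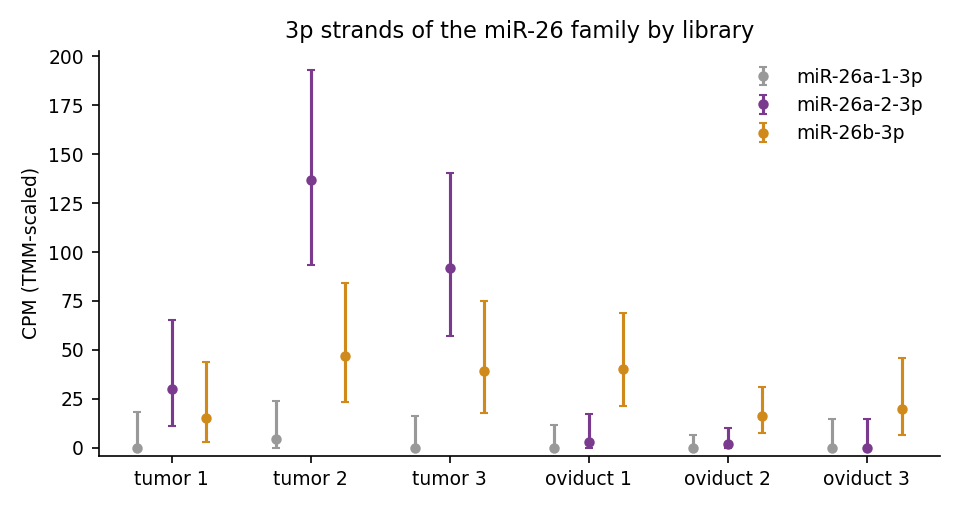
Levels of the 3p strands in TMM-scaled CPM by library, with exact Poisson 95% intervals as bars. Points of miR-26a-2-3p lie at 30.1, 137 and 91.9 CPM in the tumors and at no more than 3.11 CPM in the oviducts, those of miR-26b-3p overlap between the groups, and miR-26a-1-3p has 1 count in tumor 2 and 0 elsewhere.

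By pooled counts the make-up of the passengers differed between the groups. The strand miR-26a-2-3p took 59 of 83 3p counts in the tumors, 71.1% (exact Clopper-Pearson 95% interval 60.1 to 80.5), against 2 of 29 in the oviducts, 6.90% (0.846 to 22.8). In the oviducts nearly all 3p counts of the family were thus miR-26b-3p, although miR-26b-5p was the lesser guide. The seed CUGUUCU is carried by both of these passengers and, in RefSeq, by 2 other mouse names, miR-6932-3p, with 1 count in tumor 1, and miR-7039-3p, with 0 counts. The 2 passengers alone summed to 45.1, 184 and 131 CPM in tumors 1 to 3, against 43.5, 18.2 and 19.7 CPM in oviducts 1 to 3. The groups came within counting error of each other for that sum, with tumor 1 beside oviduct 1. The guide seed UCAAGUA summed to 10546, 13186 and 12587 CPM in the tumors and 45145, 37053 and 26706 CPM in the oviducts.

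Within a hairpin, the strands can be compared without any scaling between libraries. In miR-26a, with its gene copies pooled, the 3p strand took 0.329%, 1.21% and 0.817% of the counts in tumors 1 to 3, against 0.00754%, 0.00548% and 0% in oviducts 1 to 3. Oviduct 3 had 0 of 5657 counts, and the floor of 3 counts allows a share of up to 0.0530% there. The lowest tumor had an exact 95% interval from 0.121% to 0.715%, and the highest upper bound of such an interval in the oviducts was 0.0652%, in oviduct 3, so the intervals did not meet. The mean was 0.787% ± 0.443 in the tumors and 0.00434% ± 0.00390 in the oviducts (SD, n = 3 each), and a two-sided exact permutation test gave p = 0.1, the smallest possible.

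The log2 ratio of 5p to 3p counts in miR-26a was 8.13, 6.32 and 6.89 in tumors 1 to 3, against 13.11, 13.57 and 13.47 in oviducts 1 to 3. It changed by -6.27 (tumor minus oviduct, SE 0.64, limma adjusted p = 2.78e-05 over 142 hairpins). Since the oviducts held at most 1 3p count each, that size rests on the pseudocount of 0.5, and with pseudocounts of 0.1 and 5 it was -7.30 and -4.23, each past the threshold. The 5p strand held 99.7%, 98.8% and 99.2% of the counts of miR-26a in tumors 1 to 3, so the guide was still the main product. The mean 3p level was higher in the tumors by 86.1 CPM, while the mean 5p level was lower by far more, with a difference of -21613 CPM (tumor minus oviduct).

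In miR-26b the 3p strand took 1.04%, 2.68% and 2.68% of the counts in tumors 1 to 3, against 1.01%, 0.416% and 0.442% in oviducts 1 to 3. The tumors lay above the oviducts, but tumor 1, with 3 3p counts, was almost level with oviduct 1, and their intervals overlapped. The mean was 2.13% ± 0.948 in the tumors and 0.622% ± 0.334 in the oviducts (SD, n = 3 each), with p = 0.1 in the same exact permutation test. The log2 ratio of 5p to 3p counts changed by -1.83 (SE 0.65, limma adjusted p = 0.0382). This call was lost without tumor 2, tumor 3, oviduct 2 or oviduct 3 (adjusted p = 0.0902, 0.1004, 0.139 and 0.106) and with a pseudocount of 0.1 (adjusted p = 0.0787). It was kept without tumor 1 and without oviduct 1.

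**Figure D4:**
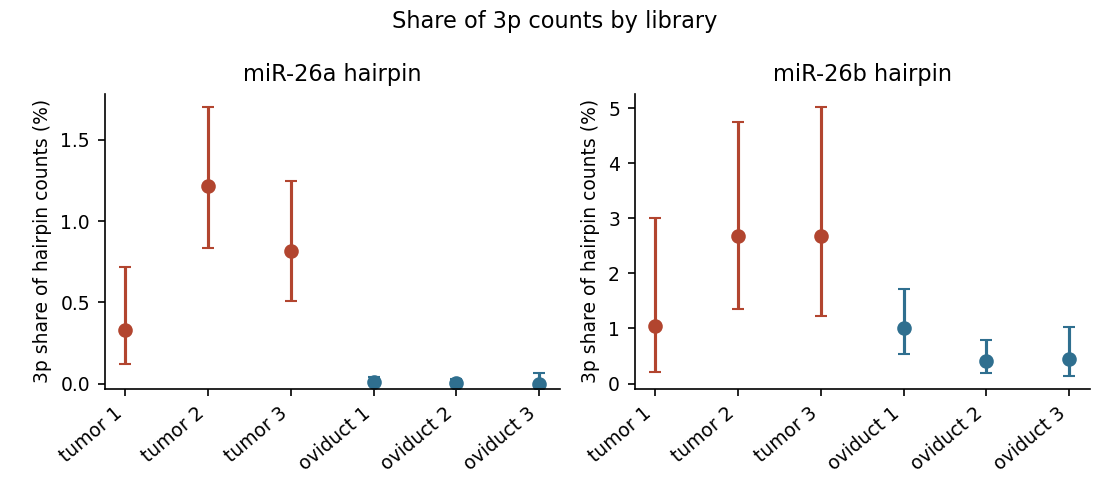
Share of 3p counts among all counts of the miR-26a hairpins (left) and the miR-26b hairpin (right) by library, in percent, with exact Clopper-Pearson 95% intervals. For miR-26a the tumors reach 0.329% to 1.21% and the oviducts at most 0.00754%, and for miR-26b tumor 1 at 1.04% stands beside oviduct 1 at 1.01%.

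The fitted change of the arm ratio was larger in miR-26a than in miR-26b. The gap between the log2 ratios of the hairpins (miR-26a minus miR-26b) was 1.77, 1.21 and 1.78 in tumors 1 to 3, against 6.54, 5.75 and 5.79 in oviducts 1 to 3. It changed by -4.44 (two-sided exact permutation p = 0.1, the smallest possible), and by -4.58 to -4.18 without single libraries. Its size rests on the pseudocount of 0.5, since the change was -5.49 with a pseudocount of 0.1, -3.86 with 1 and -2.29 with 5. This comparison was chosen after the values were seen. The pooled odds of a 3p count were 159 times higher in the tumors for miR-26a (exact 95% interval 41.9 to 1349) and 3.83 times higher for miR-26b (2.09 to 6.98), where the intervals cover counting error only.

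Against all 142 hairpins tested, a fall of the 5p:3p ratio was again common. It was called in 47.2%, and in 51.4% all tumors lay below all oviducts, with a median change of -1.53. By size of the fall, with the pseudocount of 0.5, miR-26a ranked 6 and miR-26b ranked 64. The change of miR-26a ran from -7.30 with a pseudocount of 0.1 to -4.23 with 5, so its rank rests on that choice too. Ranks at other pseudocounts were not computed. The neighbours of miR-26a were miR-196b, at -6.68, and miR-411, at -6.13. Those of miR-26b were miR-361, at -1.84, and miR-744, at -1.82. Among the 36 hairpins with over 99% of their oviduct counts on the 5p strand, 27 fell, 0 rose and the median change was -2.94. In that set miR-26a ranked 2 and miR-26b ranked 26, again with the pseudocount of 0.5. The set was chosen by the oviduct counts of the same ratio, near its ceiling, so the choice itself favours a fall.

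**Figure D5:**
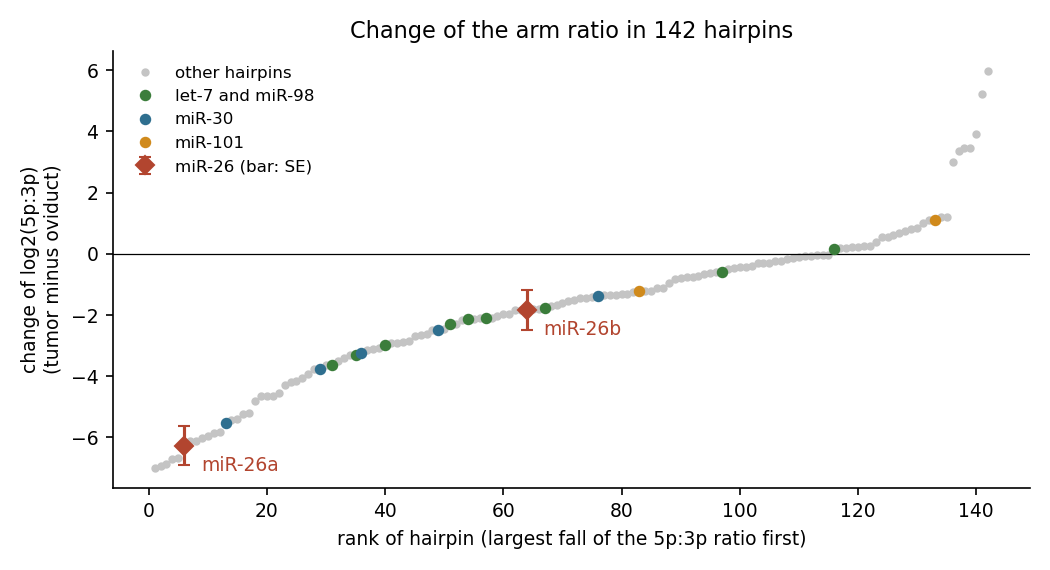
Change of the log2 ratio of 5p to 3p counts (tumor minus oviduct) for 142 hairpins in order of size, with miR-26a and miR-26b as diamonds (bars, SE) and the let-7 and miR-98, miR-30 and miR-101 hairpins as coloured points. The miR-26a diamond is at -6.27, rank 6, and the miR-26b diamond at -1.83, rank 64, near the median of -1.53. Values and ranks are for the pseudocount of 0.5.

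Other abundant families give the setting for these values. In the miR-30 family, whose guides are mostly 5p strands, 4 of 5 5p strands were lower and 5 of 6 3p strands higher by edgeR, with median log2 fold changes of -1.43 and 2.20. Over all tested names 48.4% of 5p strands were lower and 41.8% of 3p strands higher, with medians of -1.04 and 0.89. The abundant miR-30a-5p averaged 6225 ± 1145 CPM in the tumors and 17300 ± 2997 CPM in the oviducts (log2 -1.47). All 6 miR-30 3p strands passed the low-count filter, against none of the 3 miR-26 passengers. Of the 9 guides of let-7 and miR-98, which restrain growth genes, 5 were lower, with a median of -0.91, a share and a median near those of all 5p strands. The strand let-7f-5p averaged 7146 ± 140 CPM in the tumors and 18275 ± 3361 CPM in the oviducts (log2 -1.35). The arm ratio fell in 4 of 5 miR-30 hairpins (median -3.23) and in 7 of 9 let-7 and miR-98 hairpins (median -2.14), against 47.2% of all hairpins (median -1.53). Rows let-7a-1-3p and let-7c-2-3p had the same values in every library, so the let-7a and let-7c ratios are not separate observations. In the miR-101 family, whose guides are 3p strands and share Ezh2 with miR-26 as a target known from human cells, miR-101b-3p was higher, at 724 ± 81.2 CPM in the tumors and 393 ± 33.6 CPM in the oviducts (log2 0.88, edgeR adjusted p = 0.0283). Its relative miR-101a-3p was at 2250 ± 956 CPM in the tumors and 3572 ± 2475 CPM in the oviducts (log2 -0.67, adjusted p = 0.299). The difference between any of these families and miR-26 was not tested.

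The names whose log2 CPM ran most like the guides over the 6 libraries were lower in the tumors too. They were picked for their correlation with guides that already separated the groups, so that direction was all but fixed and is no support. For miR-26a-5p these were miR-1247-5p (Pearson's r 0.996), miR-99b-5p (0.993), miR-29c-3p (0.988), miR-125a-5p (0.976) and miR-328-3p (0.972). Among them 2 are 3p strands. For miR-26b-5p they were miR-145a-5p (0.988), miR-497a-5p (0.988), let-7f-5p (0.985), miR-411-5p (0.984) and miR-218-5p (0.983), all of them 5p strands. The lists have no name in common. These r values describe 6 libraries in 2 groups that share their depth and scaling.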

How the data were processed

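Total RNA (miRNeasy kit) was made into Illumina TruSeq small RNA libraries, per the labels' protocols. Per the submitters' processing notes adapters were trimmed with cutadapt, and per the file headers the deposited values are raw counts from BAM files of trimmed reads. Not given in the sources used here are the aligner, counter, microRNA reference, build and the handling of reads matching several names. Some rows had the same values in every library, such as let-7a-1-3p and let-7c-2-3p, so some reads appear to be counted under several names. The miR-199a and miR-199b hairpins likewise had the same pooled 3p counts. The shares over all tested names and hairpins therefore hold some repeats. Of the rows, 1915 were mouse names and 67 belonged to other species (10 counts, left out).

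Groups came from the labels. Levels were tested with edgeR 4.0.16 in R 4.3.3 (filterByExpr with a minimum count of 10, TMM factors, robust quasi-likelihood test) over 227 names, with Benjamini-Hochberg adjustment and a threshold of 0.05. The SE of an edgeR log2 fold change was worked back from the test, as its absolute value over the square root of the F statistic. TMM factors were 0.733, 1.32 and 1.48 in tumors 1 to 3 and 0.857, 0.948 and 0.855 in oviducts 1 to 3. Arm ratios, log2 of (5p + 0.5) over (3p + 0.5) with gene copies pooled, were tested with limma 3.58.1 over 142 hairpins with a mean of at least 20 counts. Shares and single ratios had exact permutation tests over samples. Names were the 5 members, the 5 names most correlated with each guide, up to 4 of each like family by level, and neighbouring hairpins. Members, lists and rules were chosen with earlier results of these data known. The tests were run on simulated counts in which as many names were raised as lowered, whatever their arm. That setting differs from these data, where 5p names mostly fell and 3p names mostly rose, so it does not check the scaling here. Without molecular identifiers PCR copies cannot be told from separate molecules, so every interval and floor reflects counting error only. Replicates of a group were no repeated deposits (lowest chi-square per degree of freedom 24.4). Sequences came from RefSeq and loci from GENCODE M21, both on GRCm38. Alternatives included DESeq2 1.42.0, other scalings, filters and pseudocounts, fits without each library, and a block for the replicate number.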

Additional observations from a re-analysis of the deposited data

Results flagged for a closer look

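Outside the mouse names, rows of other species held 9 counts in the tumors (3, 0 and 6 in tumors 1 to 3) and 1 count in the oviducts (0, 1 and 0 in oviducts 1 to 3), none of them on a miR-26 name, and were listed because the tumors exceeded the oviducts.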

How the results depend on the processing

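Both guides were lower and called under RLE and upper-quartile factors, TMM on 3p names, totals without miR-143, DESeq2, both other low-count filters and the replicate block, and without any single library (log2 -2.13 to -1.62 for miR-26a-5p and -1.77 to -1.47 for miR-26b-5p). Every fit without a single library, and both other low-count filters, gave larger falls than the -1.61 and -1.43 of the chosen fit. Those fits tested other numbers of names. With library totals alone the calls were lost, at -1.16 and -1.01. The counts of called names (98 to 174, against 119) and hairpins (53 to 88, against 73) stayed within 1.5 times. The numbers tested differed, however, so the called shares moved more. With no low-count filter 174 of 919 names were called, and with a mean of at least 10 CPM 161 of 340, against 119 of 227. For hairpins the calls were 88 of 189 at a minimum mean of 5 counts and 59 of 114 at 50, against 73 of 142. The edgeR split moved to 71 higher and 27 lower with library totals alone and 42 higher and 92 lower with TMM on 3p names, against 61 higher and 58 lower. The miR-26a arm ratio was called throughout (-6.77 to -5.87 without single libraries, -6.87 in an edgeR interaction of arm and group). That of miR-26b was lost with a pseudocount of 0.1 (-1.81) and with the replicate block (-1.83, adjusted p = 0.0755), and ranged from -2.24 to -1.60 without single libraries. The passenger miR-26a-2-3p, untested at the chosen filter, was called by edgeR with no low-count filter (5.02). It was also called with a minimum mean of 10 CPM (5.06), but it passed that filter through its tumor counts alone, so that call adds no support. Its pooled log2 rate ratio ranged from 4.95 to 5.84 without single libraries. The pooled log2 rate ratio of miR-26b-3p, 0.54, reversed to -0.39 with TMM on 3p names and ranged from 0.059 (without oviduct 2) to 0.67 without single libraries. Pooled ratios without single libraries, and the pseudocounts tried for the gap between the hairpins, were chosen after seeing the data. The guide ratio ranged from -0.44 to 0.088, reversed without oviduct 1, and the share of Mir26a-2 among tumor 3p counts from 97.4% to 100%. The single count of miR-26a-1-3p allowed no fold change and no paired value. Same-numbered tumors and oviducts showed no clear shared deviation (correlations -0.06, 0.07 and -0.13). With 3 samples in each group this cannot exclude a pairing, and the labels name none. The block changed no other call of the family's guides and hairpins. With it 108 names were called, against 119, and 63 hairpins, against 73. Exact sign-flip tests of 3 pairs cannot go below p = 0.25. Depth limits the 3p strands most: the oviducts held 2 miR-26a 3p counts beside 37148 5p counts.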
